A study of Mus musculus with 6 samples.

Results

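Interferon-stimulated genes were examined in satellite cells, the stem cells of skeletal muscle, after deletion of Hira. HIRA is a chaperone that places the histone variant H3.3 in chromatin. The genes were taken from a list by their symbol: 42 of the 55536 genes in the count tables, of which 36 are type I antiviral genes and 6 (Irf1, Gbp2, Gbp3, Gbp7, Psmb8 and Psmb9) are known best as targets of interferon-gamma. RNA-seq was performed on 3 control and 3 cKO samples, whose genotypes were Pax7CreErt2;Hira fl/+ for the controls and Pax7CreErt2;Hira fl/fl for the cKO. All carry a Cre that is expressed from Pax7, the satellite cell transcription factor, and is activated by tamoxifen, so that recombination is meant to remove 1 Hira allele in the controls and both in the cKO. The sample labels call the controls wild type, and the genotype given here is that of the study's methods. Mice were 8 to 12 weeks old males on a C57BL/6J background, fed a tamoxifen diet for 2 weeks and regular food for 1 week. Muscle was injured with BaCl2, and cells that were CD34+ ITGA7+ CD45- TER119- SCA1- were sorted after 5 days and kept in culture for another 48 h. The study describes independent RNA samples without saying whether each came from a separate mouse, so the p-values measure only the spread between these samples.

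Interferons are secreted proteins, and those of type I are released by cells on sensing foreign nucleic acid. Type I interferons bind the receptor formed by IFNAR1 and IFNAR2, which through the kinases JAK1 and TYK2 activates a complex that contains STAT2 and IRF9 and binds interferon-stimulated response elements. Interferon-gamma binds IFNGR1 and IFNGR2 and acts mainly at gamma-activated sites, and the genes that respond encode nucleic acid sensors, antiviral effectors, guanylate-binding GTPases and antigen-processing proteases.

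Between 47944477 and 63323577 counts were assigned to genes per sample. Differences were tested with the quasi-likelihood test of edgeR and adjusted by the Benjamini-Hochberg method over the 22404 genes that passed its filter on low counts, and a gene was called at an adjusted p under 0.05. Hira had 375, 348 and 341 counts in control against 161, 293 and 272 in cKO. The log2 fold change was -0.43 with a standard error of 0.12 (adjusted p = 0.0237). If control replicate 1 was left out the change became -0.34 (adjusted p = 0.104), and if cKO replicate 1 was left out it became -0.29 (adjusted p = 0.0459). Markers of the labelled cell type were present. Pax7 ranged from 33.6 to 40.2 CPM (counts scaled to a common library total) and Myod1 from 688 to 788 CPM. Of the 12 satellite cell markers, however, 10 were called lower in cKO, against 6.46% of all genes tested. All 25 macrophage markers passed the filter and 21 were called higher in cKO, against 9.38% of all genes tested. The 25 summed to 164.2 to 169.5 CPM in control against 338.3 to 397.7 CPM in cKO. Ptprc, which encodes the CD45 that the sort selected against, had 1.27, 1.48 and 1.53 CPM in control against 2.63, 2.86 and 2.99 CPM in cKO, and Lyz2, the lysozyme of macrophages, rose by 1.18 on the log2 scale.

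Of the 42 interferon-stimulated genes, 9 were higher in cKO, none was lower and 29 were not called. The 9 were Lgals3bp, Rtp4, Gbp7, Ddx58, Samd9l, Ifi204, Ifi27, Ifit2 and Ifitm3, of which Gbp7 is the only interferon-gamma gene. The best known antiviral genes Isg15, Ifit1, Ifit3, Usp18, Irf7 and Rsad2 were not called, and Mx1, Mx2, Oas2 and Ifi44 had too few counts to be tested. Isg15, Usp18 and Ifit3 had 11 to 31 counts per sample and standard errors of 0.27 to 0.34 on the log2 scale. For them a change of the size of most called genes could not be told from 0. The estimates of Ifit3 (0.57) and Ifit1 (0.36) were larger than those of some called genes. The changes were small, with log2 fold changes of 0.22 to 0.93 among the called genes.

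The 9 genes were 23.7% of the 38 members tested, while 9.38% of all tested genes were called higher and 6.46% lower. At an unadjusted p under 0.05, 13 members were higher and 0 lower, against 14.9% and 12.7% of all genes tested. DESeq2 called 7 higher and 0 lower, against 7.66% and 5.98% of all the genes it tested. The median log2 fold change of the tested members was 0.18 (range -0.15 to 0.93), against -0.0011 over all genes tested. It was above 0 for 34 of the 38, against 49.7% of all genes tested. In 18 members every cKO sample lay above every control sample in CPM and in none every cKO sample lay below, against 20.3% and 11.1% of all genes tested. Oas1a and Zbp1 passed the filter on low counts only through their cKO samples, which favours a change above 0. Both are among the 34, and Oas1a is also among the 18. Among the type I genes 8 of 32 tested were called higher, at a median log2 fold change of 0.18, and among the interferon-gamma genes 1 of 6, with a median of 0.23. Added together, the type I genes reached 208.4, 217.9 and 212.2 CPM in control against 254.7, 257.7 and 240.3 CPM in cKO. The interferon-gamma genes reached 16.4, 17.3 and 15.8 CPM in control against 17.5, 18.0 and 17.8 CPM in cKO. In these CPM, which leave out the scaling factors of the fit, neither sum overlapped between the groups. For interferon-gamma genes the gap was only that between 17.3 CPM in control replicate 2 and 17.5 CPM in cKO replicate 1. With the scaling factors of the fit for these samples, 0.992 and 1.006, that gap closes, so the separation depends on the scaling. The mean of the summed macrophage markers was 2.19-fold higher in cKO than in control, and that of the summed members 1.17-fold. The part of the macrophage signal in the changes of the members was not tested. In bulk RNA, fewer cells of a type and less RNA per cell cannot be told apart.

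**Figure D1:**
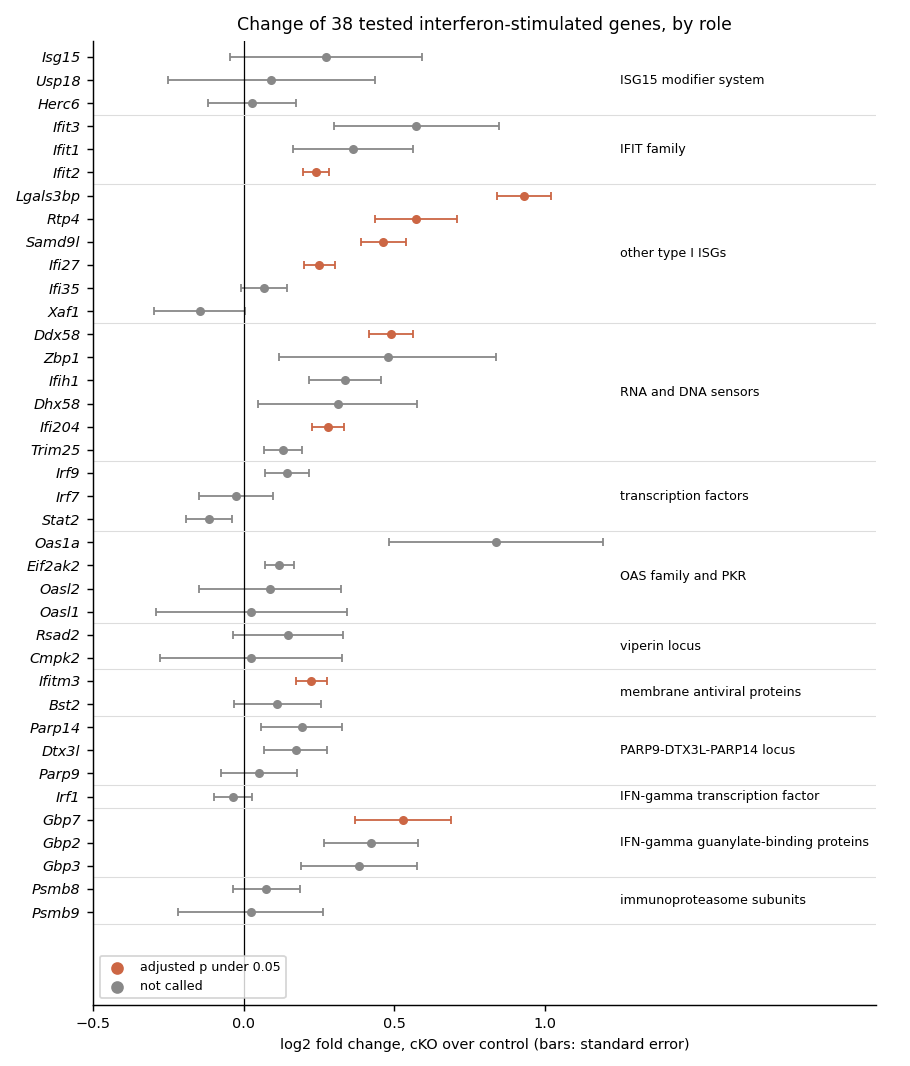
Log2 fold change of cKO over control on the horizontal axis for the 38 tested interferon-stimulated genes, grouped by role, with standard errors as bars and genes called at an adjusted p under 0.05 in orange. The 9 called genes all lie right of 0, from 0.22 for Ifitm3 to 0.93 for Lgals3bp, and the uncalled genes with the widest bars are those with few counts, such as Oas1a and Usp18.

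**Figure D2:**
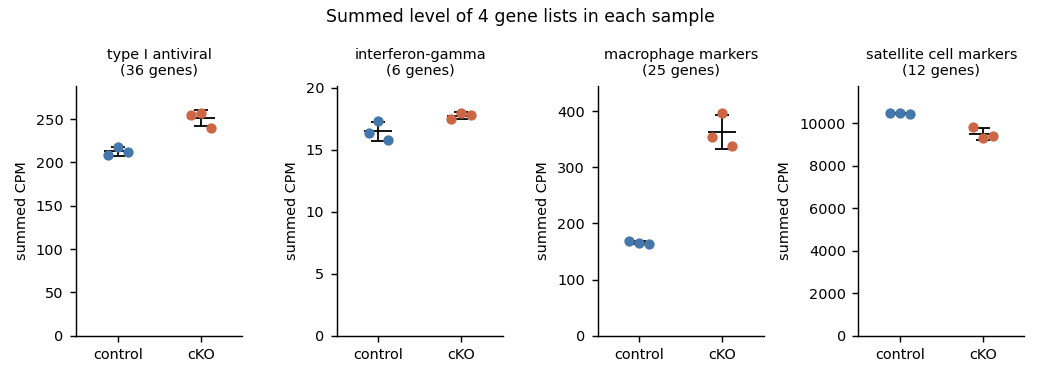
Summed CPM of the type I genes, the interferon-gamma genes, the macrophage markers and the satellite cell markers in each sample (points), with the mean and SD of 3 samples per group. As a ratio of the group means the macrophage markers differ most (164.2 to 169.5 CPM against 338.3 to 397.7 CPM), and the satellite cell markers are lower in each cKO sample than in each control sample.

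The promoters were searched for the elements named above. Of the 42 members, 31 had a promoter in the RefSeq table (GRCm38.p6, 250 bases before to 50 after the start). A response element was searched as GAAANNGAAA or, on the other strand, TTTCNNTTTC, counting overlapping matches. It was found for 14 of the 31 members (45.2%) and for 1079 of the 27025 genes in the table (3.99%). A gamma-activated site, searched as the palindrome TTCNNNGAA, was found for 9 of the 31 members (29.0%) and for 9.55% of all genes. A match is a description of letters and does not show that a factor binds.

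The stretches below are shown because they set the called genes Gbp7, Ddx58 and Ifitm3 beside uncalled neighbours and classical targets. They are given 5′ to 3′ on the strand of the gene, with matches to the response element in capitals. Those of Isg15, Ifit1, Ifit3, Gbp2, Gbp3 and Gbp7 start upstream of the RefSeq start, with the first capital 78, 104, 156, 59, 45 and 53 bases before it. In Ddx58 and Ifitm3 the first capital lies 2 bases past it.
Isg15 chr4:156200856-156200915 (- strand): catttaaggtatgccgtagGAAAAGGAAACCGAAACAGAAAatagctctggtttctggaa
Ifit1 chr19:34640769-34640828 (+ strand): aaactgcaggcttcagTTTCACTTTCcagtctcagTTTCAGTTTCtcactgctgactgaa
Ifit3 chr19:34583365-34583424 (+ strand): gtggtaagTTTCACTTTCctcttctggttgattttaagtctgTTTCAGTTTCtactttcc
Gbp2 chr3:142620594-142620623 (+ strand): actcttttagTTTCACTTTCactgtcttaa
Gbp3 chr3:142559992-142560021 (+ strand): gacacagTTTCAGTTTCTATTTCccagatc
Gbp7 chr3:142530258-142530317 (+ strand): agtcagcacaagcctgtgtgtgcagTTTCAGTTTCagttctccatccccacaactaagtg
Ddx58 chr4:40239804-40239833 (- strand): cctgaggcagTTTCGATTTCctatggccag
Ifitm3 chr7:141010715-141010744 (- strand): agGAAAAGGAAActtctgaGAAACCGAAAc

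Of the called genes that matched the table, 3 of 6 held a response element, and of those not called 11 of 24. Isg15, with 3 overlapping matches in a row, and Ifit1 and Ifit3, with 2 each, were not called, whereas Lgals3bp, Samd9l and Ifit2 were called and held none in this window. A call depends on the counts as well as on the change. Ifit3 (log2 fold change 0.57, 13 to 27 counts) and Ifit1 (0.36, 44 to 88 counts) had larger estimates than Ifit2 (0.24, 1318 to 1631 counts). Whether the changes go with the elements was not tested. The 3 guanylate-binding protein genes, close to each other on chromosome 3, each held at least 1 match.

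At the start of the pathway, the interferons themselves had few or no counts. Of 21 interferon ligand genes, 15 had no count in any of the 6 samples, Ifnb1 among them, and a count of 0 allows up to 0.0626 CPM in the shallowest sample. Ifnz, a type I interferon of mice, was the only ligand with enough counts to test, with 34, 32 and 25 counts in control against 33, 25 and 39 in cKO. It overlapped between the groups (log2 fold change 0.22, adjusted p = 0.648). Ifng had 0, 0 and 1 counts in control against 0, 1 and 0 in cKO.

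The receptors, in contrast, were well expressed. Ifnar1 had 52.6, 52.4 and 54.1 CPM in control against 54.0, 55.3 and 55.1 CPM in cKO, with a log2 fold change of 0.02 (adjusted p = 0.727). Ifnar2, its partner, had a log2 fold change of 0.14 and was not called (adjusted p = 0.100), although every cKO sample was above every control sample. Of the interferon-gamma receptor, the ligand-binding chain Ifngr1 was not called (0.07, adjusted p = 0.337). The second chain Ifngr2 had 26.5, 26.5 and 27.4 CPM in control against 32.9, 36.9 and 31.5 CPM in cKO, and was higher by 0.31 (standard error 0.05, adjusted p = 0.000548). Il10rb, a chain shared by the receptors of interferon-lambda and interleukin-10, was also higher, by 0.33 (adjusted p = 0.00169), and 12.9% of its 75-base windows occur in another annotated gene. Ifnlr1, which binds interferon-lambda, had 1 to 10 counts and was not tested.

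Behind the receptors lie the kinases and transcription factors. Of 11 listed genes of JAK, STAT and IRF signalling, all tested, 4 (36.4%) were higher and 0 lower, against 9.38% and 6.46% of all genes tested. At an unadjusted p under 0.05, also 0 were lower. The 4 higher genes were Irf8 (1.14), Irf5 (0.71), Jak2 (0.20) and Irf2bp2 (0.13, log2 fold changes). Irf2bp2, like the listed Irf2bp1 and Irf2bpl, is named for a protein that binds IRF2 and is not itself an IRF gene. Irf8, a factor of myeloid cells, had 37, 53 and 50 counts in control against 87, 96 and 98 in cKO. The members Irf9 and Stat2, which belong to the type I complex, had log2 fold changes of 0.14 (adjusted p = 0.218) and -0.11 (adjusted p = 0.377). Irf7, which is induced by interferon and amplifies interferon production, had 103, 130 and 105 counts in control against 93, 109 and 101 in cKO. The groups overlapped for Irf7, with a log2 fold change of -0.03 (adjusted p = 0.928).

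The whole pathway had 63 listed ligands, receptors, signalling factors, inhibitors and genes of nucleic acid sensing, of which 40 were tested. Of these, 13 (32.5%) were higher and 3 lower, against 9.38% and 6.46% of all genes tested. The median log2 fold change of the 40 was 0.11. Among the inhibitors, Socs3, which blocks JAK kinases, was higher by 0.33, as were Nlrc3 (0.22) and Samhd1 (0.17), while Nlrx1 (-0.32) and Pias1 (-0.18) were lower. Among the other listed genes of nucleic acid sensing, Aim2 (1.30), Tlr7 (0.97), Ikbke (0.43) and Unc93b1 (0.19) were higher and Traf3 (-0.15) was lower. Without control replicate 1 the pathway counts were 8 higher and 1 lower, against 7.36% and 4.02% of all genes. Without control replicate 2, 1 pathway gene was lower, against 4.09% of all genes.

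Among the members that sense nucleic acid, Ddx58 and Ifi204 were higher in cKO. Ddx58 (ENSMUSG00000040296, mm10 chr4:40203773-40239828) encodes RIG-I, which detects viral RNA in the cytoplasm. It had 5.08, 5.27 and 5.57 CPM in control against 7.93, 7.73 and 7.13 CPM in cKO, from 287 to 457 counts per sample. The 3 cKO samples were clear of the 3 controls, at means of 7.59 ± 0.415 and 5.31 ± 0.249 CPM (SD, n = 3). This is a log2 fold change of 0.49 with a standard error of 0.07 (adjusted p = 0.000234).

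Ifi204 (ENSMUSG00000073489, chr1:173747293-173766943) belongs to a family of DNA-binding proteins induced by interferon. It had 15.9, 17.6 and 17.6 CPM in control against 20.6, 22.1 and 20.3 CPM in cKO. The groups did not overlap and the change was small, 0.28 on the log2 scale (standard error 0.05, adjusted p = 0.0017). Of its 75-base windows 13.2% also occur in the related genes Ifi211, Mndal and Ifi207, so part of its reads cannot be assigned with certainty. The other sensors had log2 fold changes of 0.13 to 0.48 and were not called. Ifih1, which encodes the RNA sensor MDA5, was the nearest to the threshold, with 165, 181 and 171 counts in control against 141, 253 and 206 in cKO (0.34, standard error 0.12, adjusted p = 0.0728). Without the filter on low counts, and without cKO replicate 1, Ifih1 was called, with adjusted p-values of 0.0222 and 0.00482. Dhx58 (0.31) and Zbp1 (0.48) had at most 52 counts in a sample. Trim25, the ubiquitin ligase that activates RIG-I, was abundant, with 30.8, 31.4 and 29.8 CPM in control against 38.8, 32.1 and 31.8 CPM in cKO, and only cKO replicate 1 stood well above the controls (0.13, adjusted p = 0.198).

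The IFIT genes lie together on chromosome 19 and encode proteins that bind foreign RNA. Ifit2 (ENSMUSG00000045932, chr19:34550694-34576419) had 23.4, 22.7 and 23.9 CPM in control against 27.5, 27.6 and 28.9 CPM in cKO. The spread within each group was small beside the gap between them, 23.3 ± 0.578 CPM against 28.0 ± 0.796 CPM (SD, n = 3). This gap was 0.24 on the log2 scale (standard error 0.04, adjusted p = 0.00123). Ifit1 had 55, 63 and 46 counts in control against 44, 88 and 62 in cKO, and its groups overlapped (0.36, standard error 0.20, adjusted p = 0.262). Ifit3 had 22, 20 and 13 counts in control against 23, 27 and 25 in cKO, without overlap in CPM (0.57, standard error 0.27, adjusted p = 0.193). Of its 75-base windows 41.1% are shared with Ifit3b. Whether the 3 genes differ from each other in their response was not tested.

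The gene of the ubiquitin-like modifier ISG15 and the members Usp18 and Herc6, whose products act on it, were not called. Isg15 (chr4:156199424-156200818) had 14, 31 and 14 counts in control against 20, 20 and 25 in cKO. Control replicate 2 was the highest of all 6 samples, and the log2 fold change was 0.27 with a standard error of 0.32 (adjusted p = 0.655). Usp18, the protease that removes ISG15, had 11 to 22 counts per sample (0.09, adjusted p = 0.907), and Herc6, the ligase that attaches it in mice, was at 0.03 on the log2 scale (adjusted p = 0.935).

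The listed genes of the 2′-5′ oligoadenylate synthetase family, whose active members switch on an RNA-degrading enzyme, and the GTPases Mx1 and Mx2 had fewer than 50 counts per gene in each sample, and none was called. Oas1a had 5, 10 and 13 counts in control against 14, 18 and 14 in cKO. It passed the filter on low counts only through its cKO samples. All cKO samples were higher, with a log2 fold change of 0.84 whose standard error was 0.36 (adjusted p = 0.136), and 47.6% of its 75-base windows are shared with Oas1g. Oasl1 and Oasl2 had log2 fold changes of 0.03 and 0.09 and were not called. Oas2 had 0 to 4 counts and Mx1 had 0 to 4 counts per sample. Mx2, annotated as a polymorphic pseudogene, had 9, 6 and 5 counts in control against 8, 13 and 17 in cKO, and Ifi44 had at most 4 counts in any sample. At this depth Oas2, Mx1, Mx2 and Ifi44 did not pass the filter on low counts, and no difference was tested. Eif2ak2, which encodes the RNA-activated kinase PKR and was the most abundant of this group, had 17.3, 17.8 and 17.5 CPM in control against 18.5, 20.4 and 19.2 CPM in cKO (0.12, standard error 0.05, adjusted p = 0.123).

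Ifitm3 (ENSMUSG00000025492, chr7:141009586-141010770), a membrane protein that blocks the entry of viruses, was the most abundant member. It had 45.6, 50.8 and 46.8 CPM in control against 59.1, 59.2 and 52.0 CPM in cKO. The lowest cKO sample was just above the highest control sample, and the means were 47.7 ± 2.69 and 56.8 ± 4.12 CPM (SD, n = 3). On the log2 scale the change was 0.22 (standard error 0.05, adjusted p = 0.00652). Bst2, or tetherin, which holds budding viruses at the cell surface, had a log2 fold change of 0.11 and was not called (adjusted p = 0.698). Of the neighbouring genes Rsad2, which encodes the antiviral enzyme viperin, and Cmpk2, neither was called (0.15 and 0.02).

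The largest log2 fold change was that of Lgals3bp (ENSMUSG00000033880, chr11:118392751-118402092), a secreted glycoprotein that binds galectin-3. It had 162, 164 and 156 counts in control against 242, 323 and 276 in cKO, or 2.86, 2.59 and 2.54 CPM against 5.05, 5.46 and 4.94 CPM. The groups were far apart, by 0.93 on the log2 scale with a standard error of 0.09 (adjusted p = 3.2e-06). None of its 75-base windows occurs in another gene.

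Samd9l (ENSMUSG00000047735, chr6:3372257-3399572), an antiviral factor that restrains cell growth, had 9.53, 9.57 and 9.35 CPM in control against 11.9, 15.1 and 12.8 CPM in cKO. The controls were tight and the cKO samples were spread, with cKO replicate 2 the highest, and the fitted log2 change was 0.46 (standard error 0.08, adjusted p = 0.00048). Rtp4 (ENSMUSG00000033355, chr16:23520291-23614222), a chaperone of membrane receptors that is induced by interferon, had 64, 72 and 74 counts in control against 79, 112 and 95 in cKO. In CPM all cKO samples were higher, by 0.57 on the log2 scale (standard error 0.14, adjusted p = 0.00867), but with DESeq2 the adjusted p was 0.0544. Of the exonic bases of Rtp4, 13.9% lie under Gm45338 on the same strand. Ifi27 (ENSMUSG00000064215, chr12:103434211-103440239), which encodes a small membrane protein, had 11.5, 11.7 and 11.4 CPM in control against 13.9, 14.2 and 13.7 CPM in cKO. Its groups were tight and did not overlap, with a log2 fold change of 0.25 with a standard error of 0.05 (adjusted p = 0.00328).

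Of the other type I genes, Ifi35 (0.07) and the apoptosis factor Xaf1 (-0.15) were not called. The neighbouring genes Parp9, Dtx3l and Parp14, which encode ADP-ribosyltransferases and their partner ubiquitin ligase, had log2 fold changes of 0.05, 0.17 and 0.19 and were not called. Parp9 and Dtx3l overlap each other on opposite strands.

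**Figure D3:**
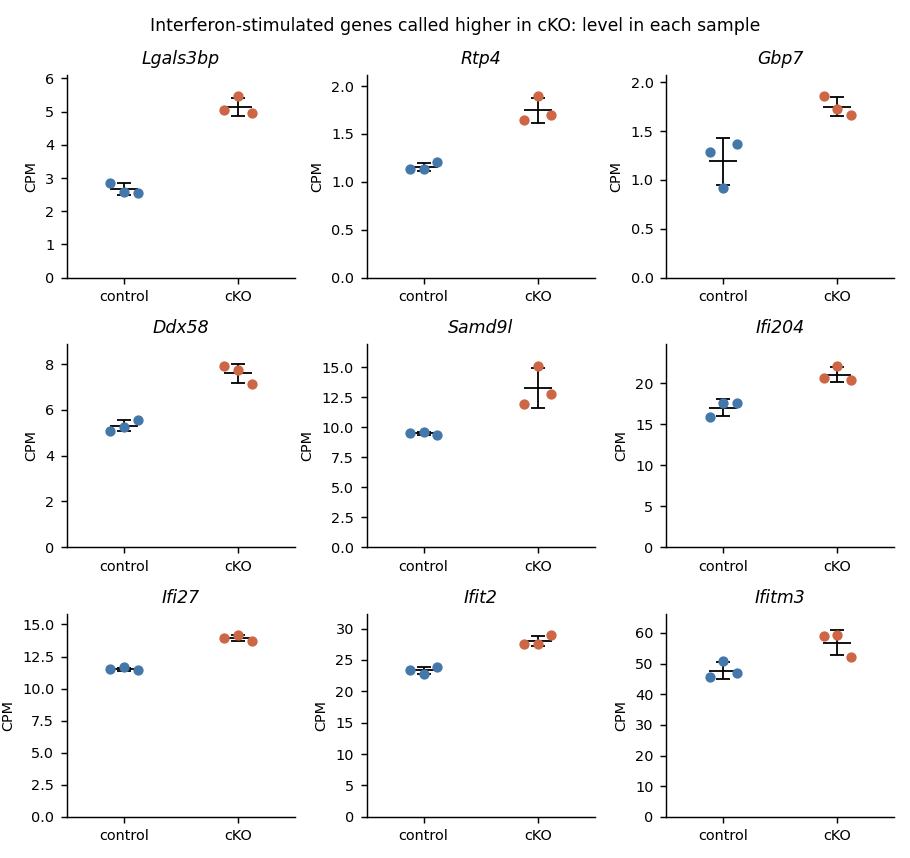
CPM of the 9 called genes in each of the 3 control and 3 cKO samples (points), with the mean and SD of each group as lines, on axes that start at 0. In each gene every cKO sample lies above every control sample, with the largest fold difference for Lgals3bp (2.54 to 2.86 CPM in control, 4.94 to 5.46 CPM in cKO).

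Of the 6 interferon-gamma genes, 5 were not called. Irf1, a transcription factor induced early by interferon-gamma, was the most abundant of them per length. It had 10.01, 11.1 and 9.85 CPM in control against 10.2, 10.1 and 10.5 CPM in cKO, which overlapped (-0.04, standard error 0.06, adjusted p = 0.795). Psmb8, a catalytic subunit of the immunoproteasome, which cuts peptides for antigen presentation, had 2.62, 2.34 and 2.26 CPM in control against 2.40, 2.81 and 2.49 CPM in cKO, and was not called (0.07, adjusted p = 0.742). Its partner Psmb9 had a log2 fold change of 0.02 with a standard error of 0.24 (adjusted p = 0.969).

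The guanylate-binding proteins, GTPases that attack the membranes around intracellular pathogens, were higher in each cKO sample than in each control sample for all 3 genes, as for 20.3% of all genes tested, and Gbp7 alone was called. Gbp7 (ENSMUSG00000040253, chr3:142530342-142550149) had 73, 58 and 84 counts in control against 89, 102 and 93 in cKO, or 1.29, 0.916 and 1.37 CPM against 1.86, 1.72 and 1.67 CPM. On the log2 scale the change was 0.53 (standard error 0.16, adjusted p = 0.0341). With DESeq2 the adjusted p was 0.106, and leaving out a sample gave adjusted p-values of 0.0349 to 0.168, with the call kept only without control replicate 3. Of its exonic bases 11.3% lie under Gm43802 on the same strand. Gbp2 had 0.990, 1.18 and 1.01 CPM in control against 1.44, 1.30 and 1.61 CPM in cKO (0.42, standard error 0.16, adjusted p = 0.0867). Gbp3 had 33, 45 and 38 counts in control against 46, 49 and 43 in cKO (0.38, adjusted p = 0.215). The difference between the guanylate-binding protein genes and the other 3 interferon-gamma genes was not tested.

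Levels were compared between genes per length, as CPM per kb of annotated exon. Ifitm3 stood alone, with 70.4 ± 3.97 in control and 83.7 ± 6.07 in cKO (CPM per kb, SD, n = 3). The next were Ifi27 (7.85 and 9.50) and Ifit2 (5.94 and 7.13), followed by Trim25 (5.33 and 5.95) and Ifi204 (4.78 and 5.91). Trim25 lay above Ifi204 in every control sample, whereas in cKO their means differed by less than the spread of Trim25. Among interferon-gamma genes Irf1 (2.60 and 2.58), Psmb8 (0.712 and 0.759) and Gbp2 (0.422 and 0.577) were highest. Isg15 reached 0.426 and 0.530, and Mx1, Oas2 and Ifi44 were lowest, with means of at most 0.0151 CPM per kb. The called members lay mostly towards the abundant end of this order. Their places among the 42 were 1, 2, 3, 5, 9, 12, 14, 17 and 25, from Ifitm3 to Gbp7.

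**Figure D4:**
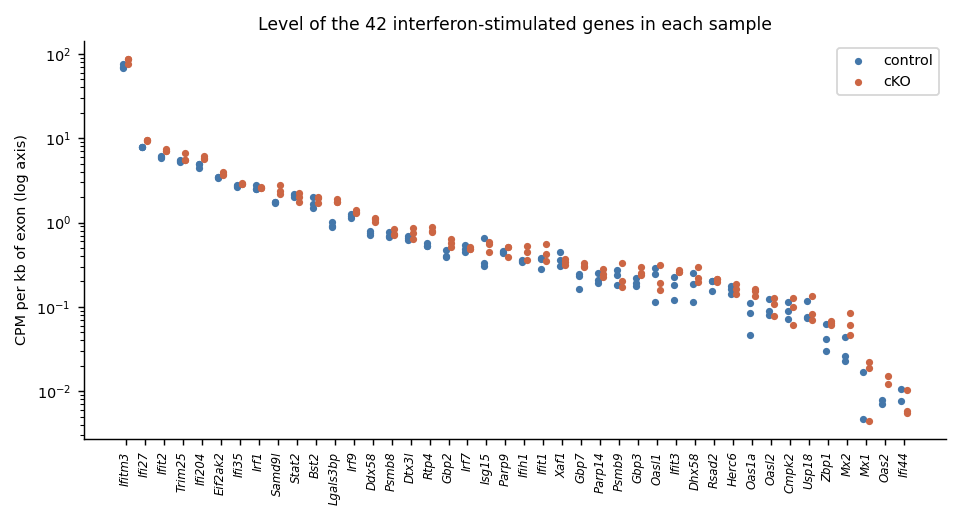
CPM per kb of exon on a log axis for the 42 genes in each sample, ordered by their mean over all 6 samples, with control in blue and cKO in orange. The group means run from 83.7 for Ifitm3 in cKO to at most 0.0151 for Mx1, Oas2 and Ifi44, and samples with 0 counts (in Mx1, Oas2 and Ifi44) cannot be drawn on this axis.

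Further interferon-stimulated genes that are not on the list were counted in the same fit. Of 86 such genes, 85 were in the files, 64 were tested, 21 (32.8%) were higher and 1 was lower, against 9.38% and 6.46% of all genes tested, and the median log2 fold change was 0.19. Of the type I genes among them 18 of 44 tested were higher. The largest changes were those of Slfn2 (1.77), Trim30d (1.74), Sp100 (1.47), Slfn5 (1.32) and Trim30a (1.29). Slfn2, which keeps lymphoid and myeloid cells quiescent, had 21, 27 and 25 counts in control against 67, 93 and 68 in cKO. The gene that was lower, Tor3a (-0.25), named after its values were seen, had 79.3 to 83.3 CPM in control against 64.4 to 72.3 CPM in cKO. Of the interferon-gamma genes 3 of 20 tested were higher: Ifi47 (1.24) and Irgm2 (0.49), both GTPases of the immunity-related family, and Gbp9 (0.32). Gbp9 had 93.1 to 101 CPM in control against 118 to 132 CPM in cKO.

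Markers of lymphocytes and neutrophils were close to 0. Of 12 lymphocyte and NK cell markers 3 had no count in any sample, and the list summed to 0.375 to 0.584 CPM in control against 0.372 to 0.772 CPM in cKO. The neutrophil markers, of which 2 of 7 had no count, summed to 0.158 to 0.265 CPM in control against 0.305 to 0.605 CPM in cKO. The plasmacytoid and dendritic cell markers overlapped between the groups (8.19 to 9.80 CPM and 8.79 to 10.3 CPM). The endothelial markers summed to 33.1 to 35.3 CPM in control against 49.1 to 58.0 CPM in cKO, and the fibroblast markers to 1121 to 1198 CPM and 1538 to 1716 CPM. As for the macrophage markers, the part of these lists in the changes of the interferon-stimulated genes was not tested.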

How the data were processed

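RNA-seq counts of 3 control and 3 cKO samples were analysed. The deposited raw counts per gene were made by the authors, who aligned reads to mm10 with Bowtie2 2.3.4.2, which does not split reads at exon junctions, and counted them with featureCounts 1.6.3. The settings for strand and for reads that match several genes are not given in the sources used here. The authors also deposited counts divided by DESeq2 size factors and their own comparison (base mean, log2 fold change with its standard error, Wald statistic, p-value and adjusted p-value, from DESeq2 2.11.40.6), which were not used. GENCODE M21 held all 55536 gene identifiers, on the same build, which gave symbols, coordinates and exon lengths.

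The counts were fitted with edgeR 4.0.16 in R 4.3.3 (filterByExpr, TMM scaling, a quasi-likelihood test on genotype with no other term) and p-values were adjusted by the Benjamini-Hochberg method over the 22404 genes kept. Standard errors of log2 fold changes were derived from this test, as the size of the change over the square root of its F statistic. CPM values are counts scaled to the sample total. A gene was called at an adjusted p under 0.05. Replicates had a common coefficient of variation of 3.92%, so counting error dominates for genes with few counts, and a count of 0 was taken to allow up to 3 counts. These limits cover counting error only. The fit was tested on simulated counts with the same spread for all genes. It recovered 86% of log2 changes of 1 and 75% of those of 0.5, and 5.85% of its calls were false. Smaller changes, like those of most called members, were not simulated. Shared sequence was measured as exact 75-base windows of GENCODE transcripts. Alternatives were DESeq2 1.42.0, other scalings and filters, a replicate block, an adjusted p under 0.01 and leaving out each sample.

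The members, the gene lists and the tests were chosen with earlier results of these data known. Members that were called, and the 3 with the highest level per length in each gene group, are described by sample and the others by counts and ranges. Of other genes, Hira, every interferon receptor, the ligands by counts, and at most the 5 largest called changes of a list are named. Tor3a and the genes of the closing observations were named after their values were seen. Same-numbered control and cKO samples did not deviate together (correlations of -0.013, -0.0045 and -0.015), so the samples were not treated as pairs. The result for 1 pathway gene is not reported here.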

Additional observations from a re-analysis of the deposited data

How the results depend on the processing

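Leaving out samples and changing the scaling, filter or tool reversed none of the 9 called members, and 7 of them kept their call under every alternative run, the exceptions being Rtp4 and Gbp7. The number of members called higher was 7 with DESeq2 and 8 to 9 when a sample was left out, and none was called lower under any alternative. The number of interferon-gamma genes called higher was 0 with DESeq2, 0 at an adjusted p under 0.01 and 0 to 1 when a sample was left out. Of the 40 pathway genes tested, 8 were higher and 1 lower at an adjusted p under 0.01, against 6.28% and 3.27% of all genes tested. Leaving out a sample gave 8 to 12 pathway genes higher and 1 to 3 lower. Over all genes the shares were then 6.88% to 9.7% higher and 4.02% to 7.33% lower. Other interferon-stimulated genes called lower were 2 without the filter and 1 to 2 when a sample was left out. Hira, at -0.43, missed an adjusted p under 0.01 and ranged from -0.52 to -0.29 when a sample was left out. With the replicate block, 9 members were called higher and 0 lower, the same 9 genes, and the counts over all genes were 1901 higher and 1251 lower. With total counts as the only scaling, 2462 genes were higher and 1057 lower, against 2101 and 1448. The number of genes called lower fell to 917, 934 and 960 without control replicates 1, 2 and 3. The causes were not tested.

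Direction turned only when a sample was left out, in members that were not called. The log2 fold changes then ranged from -0.33 to 0.27 for Oasl1, -0.074 to 0.29 for Oasl2, -0.25 to 0.34 for Usp18, -0.25 to 0.27 for Cmpk2, -0.070 to 0.022 for Irf1, -0.086 to 0.051 for Irf7, -0.26 to 0.0069 for Xaf1, -0.073 to 0.11 for Herc6, -0.33 to 0.19 for Psmb9 and -0.016 to 0.17 for Parp9.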

Other observations

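The interferon-inducible genes of the Ifi200 family on chromosome 1, which encode DNA-binding proteins related to the member Ifi204, were looked at after their values were seen. Of the listed family members with enough counts, Ifi207, Mndal, Ifi205 and Ifi211 were higher in cKO by the quasi-likelihood test of edgeR after Benjamini-Hochberg adjustment. Ifi203 was not called. By the same test 9.38% of all genes tested were called higher. Ifi207 had 54, 66 and 45 counts in control against 86, 115 and 95 in cKO, a log2 fold change of 0.97 (adjusted p = 0.000496). Mndal had 122, 127 and 125 counts in control against 169, 239 and 179 in cKO, a log2 fold change of 0.78 (adjusted p = 0.000156). Ifi205 changed by 0.37 and Ifi211 by 0.27. The family shares sequence, with 63.6% of the 75-base windows of Ifi211 found in other genes, so the values of single genes are uncertain. Ifi203 had 9, 13 and 14 counts in control against 7, 13 and 32 in cKO.

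Of the 6 listed Schlafen genes, Slfn2 and Slfn5 were called higher, against 9.38% of all genes tested. Slfn8 (log2 fold change -0.09, adjusted p = 0.844) and Slfn9 were not called, and Slfn1 and Slfn4 had too few counts to be tested. Slfn5 had 47, 59 and 69 counts in control against 112, 170 and 120 in cKO, and Slfn9 had 45.0, 46.3 and 47.4 CPM in control against 44.6, 45.5 and 42.4 CPM in cKO (log2 fold change -0.09, adjusted p = 0.131). Differences between the Schlafen genes were not tested. The constitutive proteasome subunits Psmb5, Psmb6 and Psmb7, which the immunoproteasome subunits replace, had log2 fold changes of -0.09, -0.08 and -0.13, and Psmb7 alone was called lower (adjusted p = 0.0273).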
